A study of Sus scrofa with 6 samples.

Results

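Kidney injury is followed in the clinic by a small set of proteins measured in urine or plasma, and this account follows the genes that encode 9 of them in pig renal medulla. The genes are LCN2 (lipocalin-2, also called NGAL), HAVCR1 (KIM-1), CLU (clusterin), SPP1 (osteopontin), IGFBP7, CST3 (cystatin C), FABP1 (liver-type fatty acid binding protein), UMOD (uromodulin) and EGF (epidermal growth factor). They were chosen by name as markers of kidney injury, and a probe set was taken when the array annotation gave it 1 gene symbol equal to one of these names. On that rule 7 of the 23999 probe sets tested, belonging to 5 of the 9 genes, were found: 1 each for CLU, SPP1, FABP1 and EGF and 3 for CST3. LCN2, HAVCR1, IGFBP7 and UMOD have no such probe set and were not analysed here, although probe sets without a symbol may read them.

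The Sham group was 3 White-Landrace crossbred pigs kept under general anaesthesia for 2.5 hours, and the CPB group was 3 pigs of the same breed that spent 2.5 hours on cardiopulmonary bypass, the heart-lung machine, under general anaesthesia. By the study's methods all were adult female Large White-Landrace crosses, and Sham animals also had the neck dissection and the heparin that bypass needs. Renal medulla, from blocks of outer medulla by the methods, was collected 24 hours later. A separate Affymetrix porcine array was used for every pig, so n = 3 animals per group throughout. Values are RMA intensities, that is, background-corrected and quantile-normalised brightness of a probe set on a linear scale. Differences are given as mean log2 intensity in CPB minus that in Sham, with the standard error (SE) and 95% confidence interval of limma's moderated test.

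These markers fall into classes by what the kidney does with them. LCN2, HAVCR1, CLU and SPP1 are known to rise when tubule cells are injured, CLU and SPP1 being made by healthy kidney too. IGFBP7 is a secreted binding protein used as a sign of cell cycle arrest. UMOD and EGF are made in the thick ascending limb and early distal tubule of healthy kidney and are known to fall in tubule damage. FABP1 is a cytosolic protein of proximal tubule cells that leaks into urine, and CST3 is made by nearly all nucleated cells, so that its level in plasma follows filtration and not gene expression in the kidney. What the arrays read is RNA in the tissue, not protein in urine or plasma. In bulk tissue, fewer cells of a type and less RNA per cell cannot be told apart.

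Of the 7 probe sets, 1 met the study's threshold of an unadjusted p under 0.05 with at least 1.6-fold, that of CLU, which was lower in CPB. SPP1, CST3, FABP1 and EGF had slightly higher means of log2 intensity in CPB, with differences between 0.016 and 0.16, and none of them met the threshold. For EGF the mean on the linear scale was lower in CPB. Over all probe sets 0.304% met it, 0.217% as lower and 0.0875% as higher, with a median log2 difference of 0.027. CLU was also the 1 probe set of the 7 whose groups did not overlap, which over all probe sets held for 5.27%, with CPB above in 3.38% and below in 1.89%. No member passed an adjusted p of 0.05 in limma after Benjamini-Hochberg adjustment over all 23999 probe sets, nor did any other probe set (0 called, with 336, or 1.4%, at an unadjusted p under 0.05). With 3 animals against 3 the smallest two-sided exact permutation p is 0.1.

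**Figure D1:**
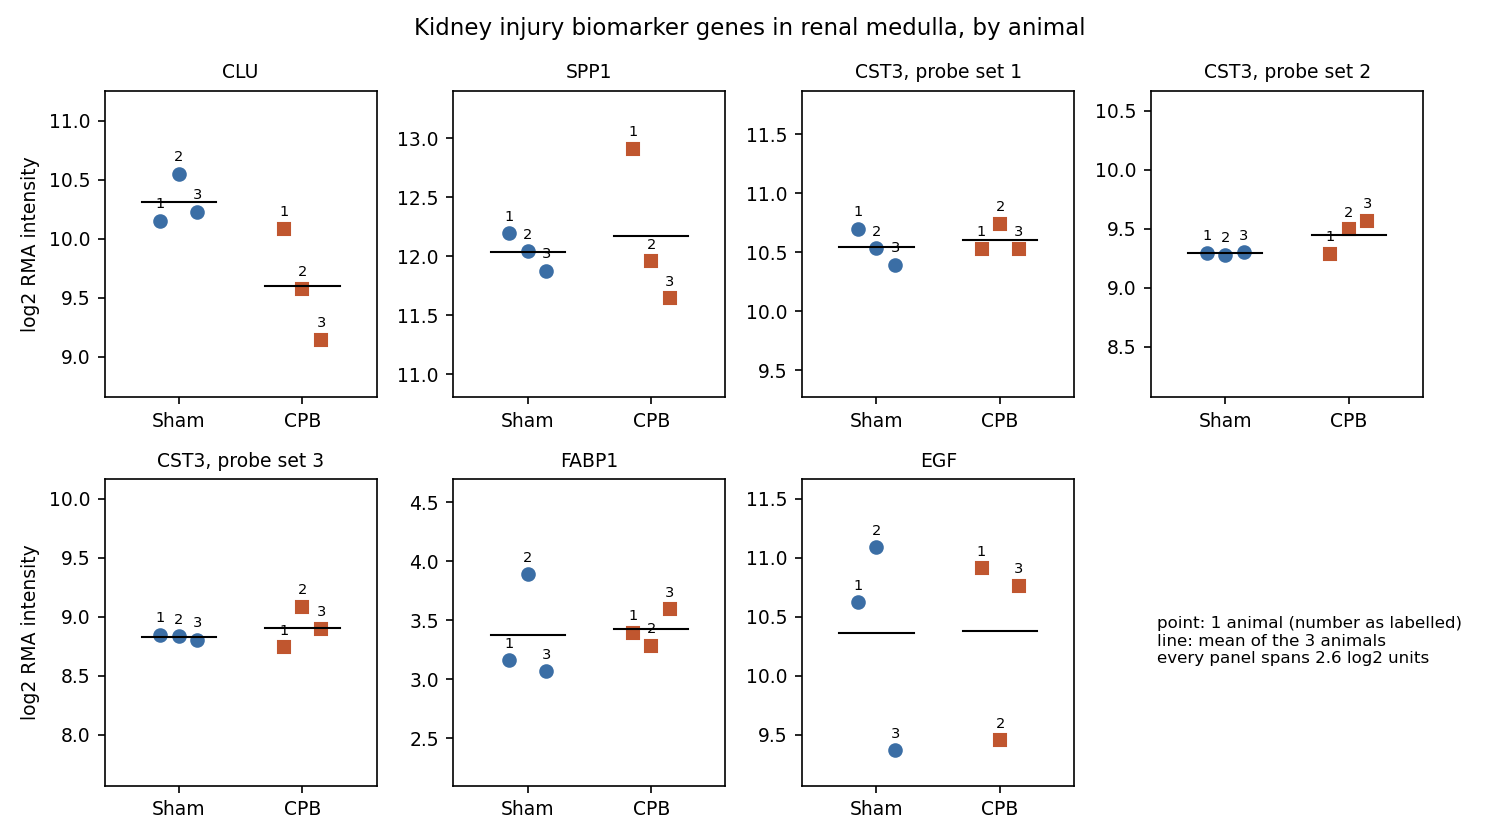
Log2 RMA intensity of the 7 probe sets in each animal, with Sham as blue circles and CPB as orange squares, the animal's number above its point and the group mean as a line. Every panel spans the same number of log2 units, so that the width of the scatter can be compared. CLU is the panel in which the CPB animals all lie below the Sham animals, EGF has a low animal in each group (Sham 3 and CPB 2), and CPB 1 stands high in SPP1.

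Arrays differed widely in the genes of the proximal tubule. With each of 17 such markers centred on its own mean, their average log2 intensity stood at -2.16, 1.11 and -0.30 in Sham 1, 2 and 3 and at 1.29, -1.54 and 1.603 in CPB 1, 2 and 3. Each group held arrays at both ends. Their summed intensity ran from 3697 to 32500 in Sham and from 4999 to 43755 in CPB. Markers of other segments differed between arrays too. KCNJ1, the potassium channel of the thick ascending limb, read 2219, 1250.5 and 881 in Sham and 1249, 2127 and 835 in CPB, with means of 1450 and 1404. AQP3, a water channel of the collecting duct, read 4831, 1048 and 2590 in Sham and 1080, 5437 and 1280 in CPB, with means of 2823 and 2599. Both were highest on Sham 1 and CPB 2, but not every member of their lists was. FXYD2, on the thick ascending limb list, read 3638, 4301 and 2969 in Sham and 4518, 3450 and 4450 in CPB. SCNN1B, on the distal tubule and collecting duct list, read 107, 187 and 98.2 in Sham and 174, 118 and 165 in CPB. Of 7 thick ascending limb markers 4 had higher and 3 lower means of log2 intensity in CPB, with a median difference of 0.0095, and of 8 distal tubule and collecting duct markers 4 were higher and 4 lower, with a median of -0.018. Both lists had 0 called, beside 0.304% of all probe sets. The thick ascending limb cotransporter SLC12A1 (NKCC2) and the collecting duct water channel AQP2, the usual markers of these segments, have no probe set with 1 symbol and were not analysed here.

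Clusterin is a secreted chaperone that binds misfolded proteins and is known to be induced in injured tubule cells. CLU intensity was 1141, 1503 and 1203 in Sham 1, 2 and 3 and 1088, 764 and 566 in CPB 1, 2 and 3. All CPB animals lay below all Sham animals, although CPB 1 was close to Sham 1 while CPB 3 had less than any other animal. Sham averaged 1282 ± 194 and CPB 806 ± 264 (SD, n = 3 each). This is a log2 difference of -0.71 (SE 0.26, 95% confidence interval -1.35 to -0.074), 1.64-fold lower in CPB, with an unadjusted p of 0.0342 and an adjusted p of 0.995 from limma. The exact permutation p, two-sided, was 0.1, the smallest the design allows.

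The study had itself listed CLU on these arrays, so its direction here is not independent evidence. In 17 alternative ways of processing the arrays CLU stayed lower in CPB, by -0.95 to -0.29 on the log2 scale, and it met the threshold in 7 of them. Since every CPB value lay below every Sham value, leaving out or weighting arrays or changing the test could not turn the sign. The constant direction under those alternatives is therefore no separate support. With the mean of the proximal tubule markers as a covariate CLU differed by -0.76. It was no longer called when any 1 array other than CPB 1 was left out, with log2 differences of -0.79, -0.59 and -0.75 without Sham 1, 2 and 3 and of -0.70 and -0.48 without CPB 2 and 3 (unadjusted p between 0.0513 and 0.105 in limma). Without CPB 1, the CPB animal nearest to Sham, it differed by -0.95.

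**Figure D2:**
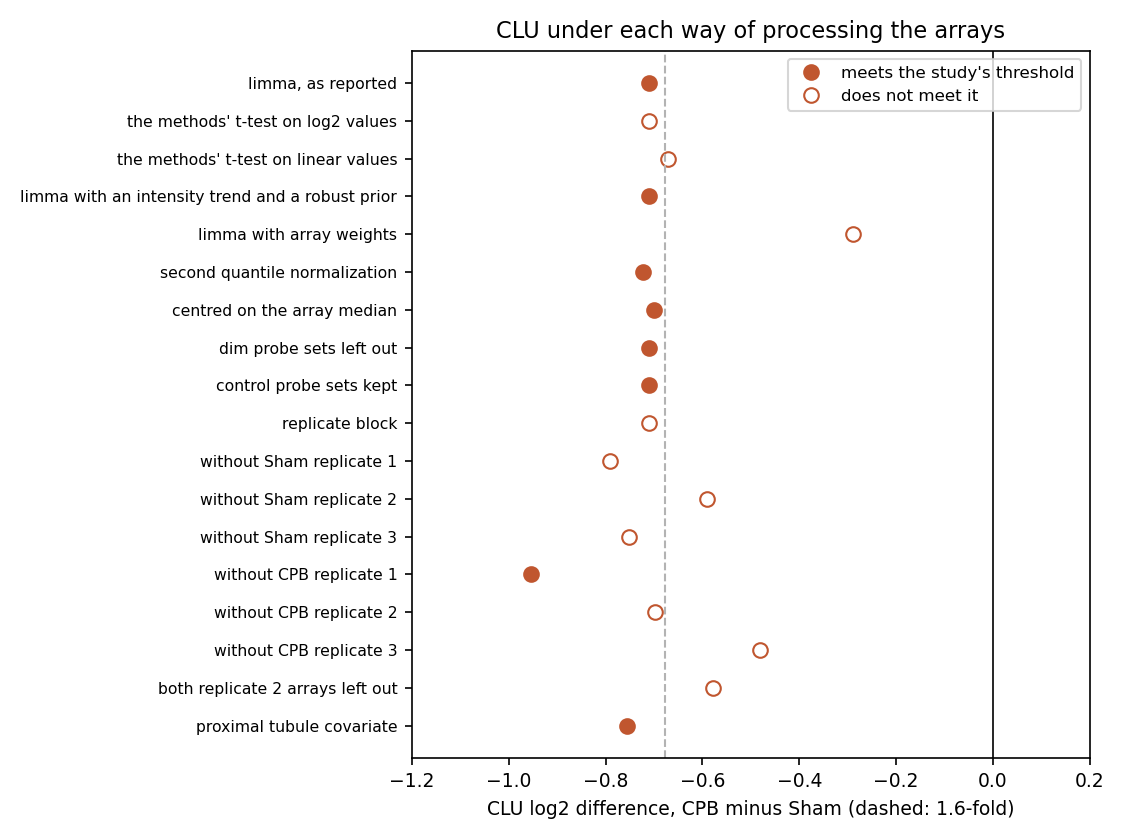
Log2 difference of CLU, CPB minus Sham, in the limma fit made here (labelled as reported) and under each of the 17 alternatives. Filled points met the study's threshold, open points did not, and the dashed line marks 1.6-fold. All points lie below 0, from -0.95 without CPB replicate 1 to -0.29 with array weights. As the groups do not overlap, leaving out or weighting arrays or changing the test could not turn the sign.

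VLDLR, a lipoprotein receptor that also takes up clusterin, differed by -0.044 (SE 0.23) and on a second probe set by 0.071 (SE 0.17). LRP2, which encodes megalin, the endocytic receptor by which proximal tubule takes up filtered clusterin, lipocalin-2 and cystatin C, differed by 0.52 (SE 1.39) on its brighter probe set and by 0.85 (SE 1.48) on the other. LRP2 intensity was 181, 2390 and 899 in Sham and 2469, 169 and 2740 in CPB, in the order of the animal numbers. Sham 1 and CPB 2 were the low arrays, as on the proximal tubule list, of which LRP2 is itself a member.

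Osteopontin, encoded by SPP1, is a secreted phosphoprotein that binds integrins and CD44 and is made by distal nephron, by injured tubule and by macrophages. The SPP1 probe set was brighter than 99.5% of all probe sets, a rank that also depends on how well its probes bind. SPP1 intensity was 4682, 4224 and 3765 in Sham and 7710, 3978 and 3204 in CPB. CPB 1 stood above all other animals and CPB 3 below them, so that the CPB group enclosed the Sham group. The log2 difference was 0.13 (SE 0.33, 95% confidence interval -0.68 to 0.95, unadjusted p = 0.702 in limma), which allows a rise of up to 1.93-fold and a fall of up to 1.6-fold. Without CPB 1 it was -0.24, and without the other arrays in turn it lay between 0.053 and 0.40. Of its receptor genes, ITGAV, the integrin alpha v chain, had intensities of 804, 463 and 675 in Sham and 518, 447 and 482 in CPB, a log2 difference of -0.39 (SE 0.22), and the other measured integrin chains differed by -0.12 (ITGB3), -0.28 (ITGB5) and -0.26 (ITGB1). None of these met the threshold. CD44 has no probe set with 1 symbol and was not analysed here. The 11 measured macrophage markers had a median log2 difference of -0.31 with 0 called, beside 0.304% of all probe sets. Their summed intensity was 3047 to 4365 in Sham and 3061 to 3960 in CPB. CPB 1, the array with the highest SPP1, had a macrophage marker sum of 3574, within the range of the other arrays, and their part in the SPP1 values was not tested.

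Cystatin C, encoded by CST3, inhibits lysosomal cysteine proteases and is secreted by most cells. Its brightest probe set read 1662, 1481 and 1345 in Sham and 1475, 1711 and 1478 in CPB. The second read 629, 621 and 632 in Sham and 626, 721 and 760 in CPB, and the third 460, 456 and 447 in Sham and 428, 543 and 477 in CPB. The groups overlapped on each, with CPB 1 inside or below the Sham range and CPB 2 the highest animal on the first and the third. The log2 differences were 0.058 (SE 0.13), 0.16 (SE 0.12) and 0.080 (SE 0.13), with unadjusted p of 0.678, 0.227 and 0.549 in limma. Their 95% confidence intervals ran from -0.27 to 0.38, from -0.13 to 0.44 and from -0.23 to 0.39, so that the highest rises they allow are 1.3-fold, 1.36-fold and 1.31-fold. The dimmer pair of probe sets share their name apart from the suffix, so they may read the same target and are not independent. CST3 varied little between animals: the standard deviations over the 6 arrays were 0.13, 0.13 and 0.12 log2 units, above those of only 19.5%, 19% and 15.9% of all probe sets.

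Of the proteases it holds in check, cathepsin B (CTSB) had intensities of 3859, 8260 and 5873 in Sham and 9380, 4304 and 10012 in CPB. Sham 1 and CPB 2 were again lowest, and the log2 difference was 0.37 (SE 0.42). CTSS and CTSH, further cysteine cathepsins, differed by -0.37 (SE 0.34) and -0.014 (SE 0.24). CTSD, an aspartic cathepsin that cystatins do not inhibit, differed by 0.38 (SE 0.22). None of these 4 cathepsins met the threshold. CTSL has no probe set with 1 symbol.

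FABP1 carries fatty acids in the cytosol of proximal tubule cells and hepatocytes. Its probe set was at the dim end of the arrays, brighter than 5.65% of all probe sets, with intensities of 8.93, 14.8 and 8.38 in Sham and 10.5, 9.73 and 12.1 in CPB. Sham 2 was the highest animal and Sham 3 the lowest, and the CPB animals lay between them. The log2 difference was 0.051 (SE 0.24, 95% confidence interval -0.54 to 0.65, unadjusted p = 0.842 in limma). Signal over background is not given by these values, so a probe set this dim may hold little FABP1 signal. Over the 6 arrays FABP1 spanned 0.82 log2 units, where the mean of the 17 proximal tubule markers spanned from -2.16 to 1.603. PPARA, the nuclear receptor that switches on fatty acid genes, differed by 0.48 (SE 0.29) on its brighter probe set and by -0.019 (SE 0.18) on the other. HNF4A, a transcription factor of proximal tubule, differed by 0.65 (SE 1.15), with 163, 1496 and 559 in Sham and 1645, 186 and 1718 in CPB. FABP3, the heart-type binding protein and likewise a proposed injury marker, had means of 3327 in Sham and 3541 in CPB and differed by 0.16 (SE 0.36). FABP3 falls outside the rule for named genes and was chosen after its values were seen.

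EGF is made in kidney as a membrane-bound precursor on the thick ascending limb and distal convoluted tubule and is shed into urine. Its intensity was 1579, 2179 and 660 in Sham and 1928, 701 and 1739 in CPB. Each group held 1 low animal, Sham 3 and CPB 2, and the others lay between 1579 and 2179, so the groups overlapped almost fully. Sham averaged 1473 ± 765 and CPB 1456 ± 661 (SD, n = 3 each). The log2 difference was 0.016 (SE 0.57, 95% confidence interval -1.38 to 1.41, unadjusted p = 0.978 in limma), and that interval allows a rise of up to 2.66-fold and a fall of up to 2.6-fold. Its spread between animals, a standard deviation of 0.76 log2 units over the 6 arrays, was larger than that of 93.7% of all probe sets. Its sign also turned with the processing, at -0.48 without Sham 3, -0.25 without CPB 1, -0.18 without CPB 3 and 0.48 without CPB 2.

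The pair of arrays with low EGF lay on opposite sides of 0 for the thick ascending limb markers. Sham 3 and CPB 2 had centred means of -0.22 and 0.28 for 7 thick ascending limb markers, of -0.30 and -1.54 for the proximal tubule markers, and of 1.39 and 0.73 for 6 urothelium markers. The urothelium markers, genes of the lining of the renal pelvis, were highest on these 2 arrays, followed by Sham 1 at 0.49 and then by CPB 1, Sham 2 and CPB 3 at -0.75, -0.91 and -0.95, and their part in the EGF values was not tested. Sham 1, which had the lowest proximal tubule mean of all arrays, had an EGF intensity of 1579, in the range of the high animals. UPK1B, a uroplakin of urothelial cells, read 207, 33.4 and 1208 in Sham and 35.3, 116 and 28.4 in CPB.

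**Figure D3:**
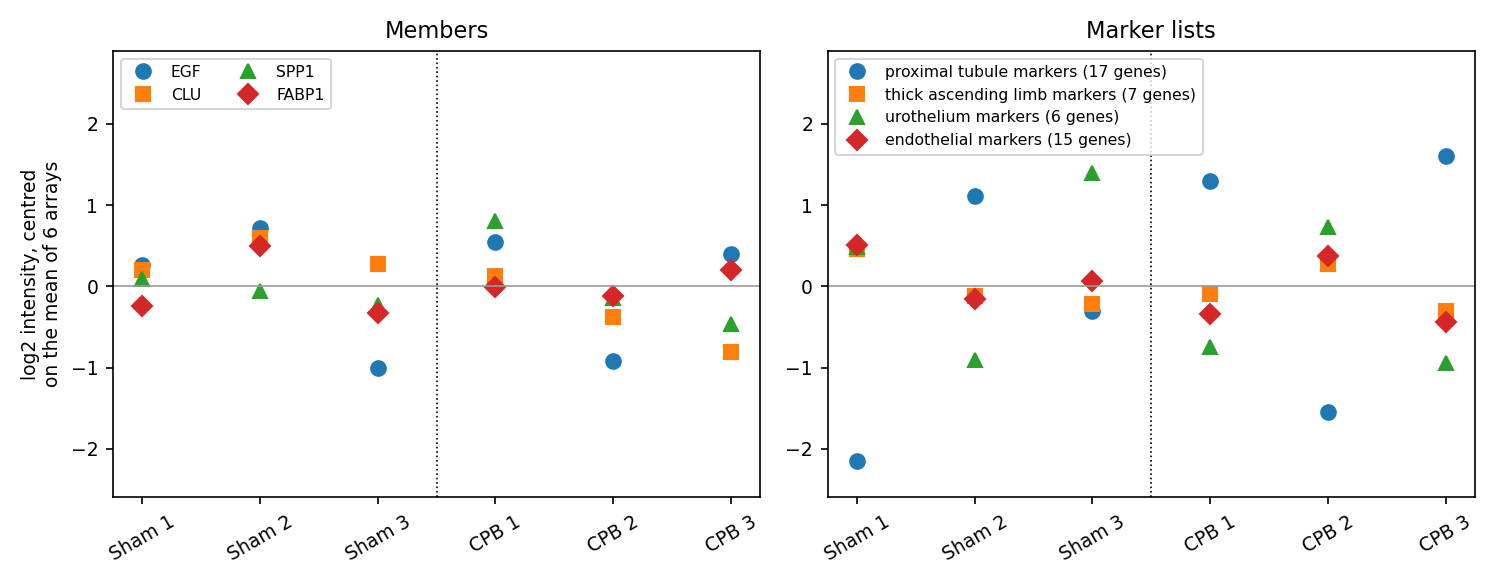
Log2 intensity of EGF, CLU, SPP1 and FABP1 (left) and the mean log2 intensity of 4 marker lists (right) on each array, each centred on its mean over the 6 arrays, with a dotted line between Sham and CPB. EGF is lowest in Sham 3 and CPB 2. Proximal tubule markers are lowest in Sham 1 and CPB 2, at -2.16 and -1.54, and urothelium markers are highest in Sham 3 and CPB 2, at 1.39 and 0.73.

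EGFR, the receptor for EGF, had intensities of 1041, 599 and 624 in Sham and 751, 1158 and 484 in CPB, a log2 difference of 0.038 (SE 0.37), and a second EGFR probe set differed by -0.022 (SE 0.24). HBEGF, another ligand of this receptor, differed by 0.040 (SE 0.13) and TGFA, a further ligand, by -0.072 (SE 0.13). HPN encodes hepsin, the protease that releases uromodulin from the cell surface, and read 266, 633 and 197 in Sham and 558, 288 and 639 in CPB, a log2 difference of 0.54 (SE 0.51). For IGFBP7, which is measured in urine with TIMP2 as a marker of cell cycle arrest, the partner genes could be read. TIMP2, a metalloproteinase inhibitor, was at 323, 228 and 266 in Sham and 226, 296 and 180 in CPB, a log2 difference of -0.24 (SE 0.23), and IGF1R, the receptor whose ligands the binding proteins hold, differed by 0.25 (SE 0.24). Neither met the threshold, and their groups overlapped. Their second probe sets differed by -0.13 (SE 0.22) and 0.24 (SE 0.16).

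Of the 45 listed receptors, regulators, proteases and ligands of the 9 genes 31 were measured. Their 15 higher and 16 lower means gave a median log2 difference of -0.014, beside 0.027 over all probe sets. None met the study's threshold in either direction, beside 0.304% of all probe sets, and 0 had an unadjusted p under 0.05 in limma, beside 1.4%. In a list of 31 genes, 0 is near those shares.

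**Figure D4:**
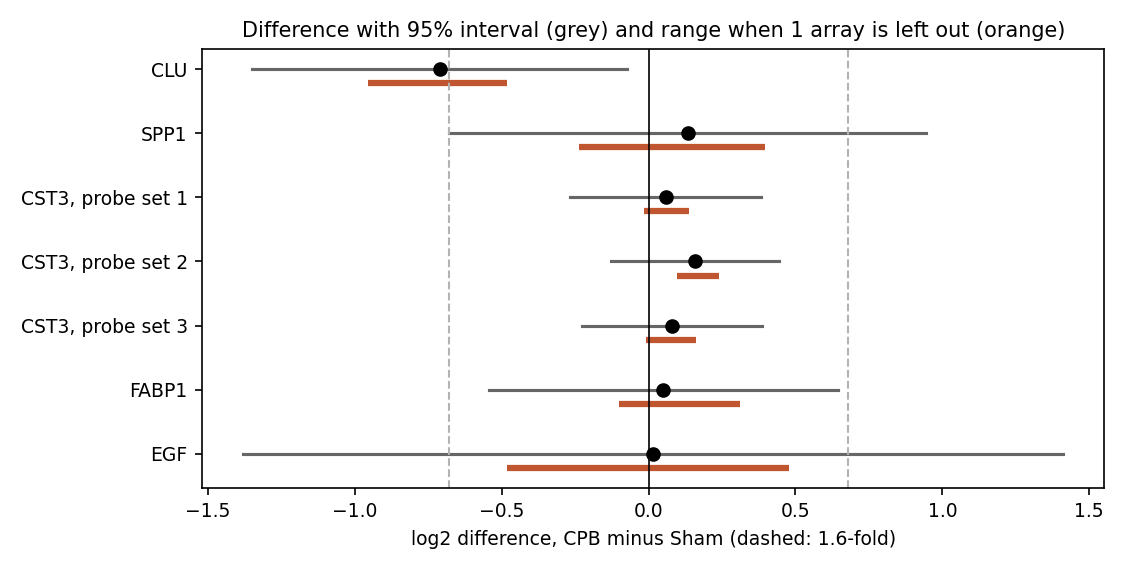
Log2 difference, CPB minus Sham, of the 7 probe sets (black points) with its 95% confidence interval (grey) and the range of the difference when 1 array at a time is left out (orange), with 1.6-fold as dashed lines. The interval of CLU lies below 0, those of CST3 are the narrowest and lie inside the dashed lines, and that of EGF reaches from -1.38 to 1.41.

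The list of other injury marker genes held 43 names, and 30 of them were measured. They divided evenly, with 15 higher and 15 lower means in CPB and a median log2 difference of -0.0041. None met the study's threshold, beside 0.304% of all probe sets, and 0 had an unadjusted p under 0.05 in limma, beside 1.4%. In a list of 30 genes, 0 is near those shares. The smallest p belonged to 3 genes with lower means in CPB. GSTA1, a glutathione transferase of proximal tubule that leaks into urine, read 477, 563 and 1266 in Sham and 191, 506 and 385 in CPB, a log2 difference of -1.06 (SE 0.50, unadjusted p = 0.0775 in limma). Its probe set shares its name, apart from the suffix, with the one that the study calls GSTA2. The study lists that one as lower in CPB, with the largest fall it reports. GSTA1 has other probe sets that differed by -0.44 (SE 1.45) and 0.16 (SE 0.48). VIM, vimentin, an intermediate filament of mesenchyme and of injured tubule, read 3391, 1700 and 2756 in Sham and 1760, 1725 and 1818 in CPB, a log2 difference of -0.51 (SE 0.26, unadjusted p = 0.0966 in limma). ATF3, a stress-induced transcription factor, read 101, 137 and 185 in Sham and 100, 105 and 110 in CPB, a log2 difference of -0.38 (SE 0.23, unadjusted p = 0.147 in limma). In each, the highest animal was a Sham animal and the groups overlapped. IL18 is the cytokine whose protein was assayed in the urine of these pigs. On the arrays IL18 read 82.3, 93.8 and 80.0 in Sham and 88.5, 120 and 83.9 in CPB, a log2 difference of 0.18 (SE 0.17, 95% confidence interval -0.24 to 0.59), with overlapping groups.

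The highest means relative to Sham within this list were in enzymes of the proximal tubule, a grouping made after the values were seen. The brush border enzymes ALPL, GGT1, DPP4 and ANPEP and the proximal enzyme MIOX had log2 differences of 1.38, 1.27, 1.06, 1.03 and 1.03 with SE of 1.09, 0.80, 1.23, 0.98 and 1.29. Their unadjusted p lay between 0.163 and 0.456 in limma. The proximal tubule list, which holds none of these 5 genes, had higher means in CPB for all 17 of its genes, with a median of 0.94. It had 0 called, beside 0.304% of all probe sets, and its part in the values of those 5 genes was not tested. At the other end lay GSTA1, LGALS3 (galectin-3), ANXA2 (annexin A2), VCAM1, an adhesion molecule of endothelium and injured tubule, and CYR61, a matricellular protein, at -1.06, -1.06, -0.91, -0.76 and -0.68. LGALS3 read 1826, 271 and 2569 in Sham and 239, 2187 and 269 in CPB, high on Sham 1, Sham 3 and CPB 2. These arrays had the most urothelium marker signal and the lowest proximal tubule means. They were also the arrays with centred means above 0 for distal tubule and collecting duct markers (0.082, 0.032 and 0.42) and for endothelial markers (0.51, 0.060 and 0.37). The part of any of these cell types in the LGALS3 values was not tested. SOX9 (0.052, SE 0.13), B2M (0.0034, SE 0.13) and the keratins KRT8 (-0.12, SE 0.50) and KRT18 (-0.21, SE 0.43), further genes used as signs of tubule injury, had differences within their standard errors.

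**Figure D5:**
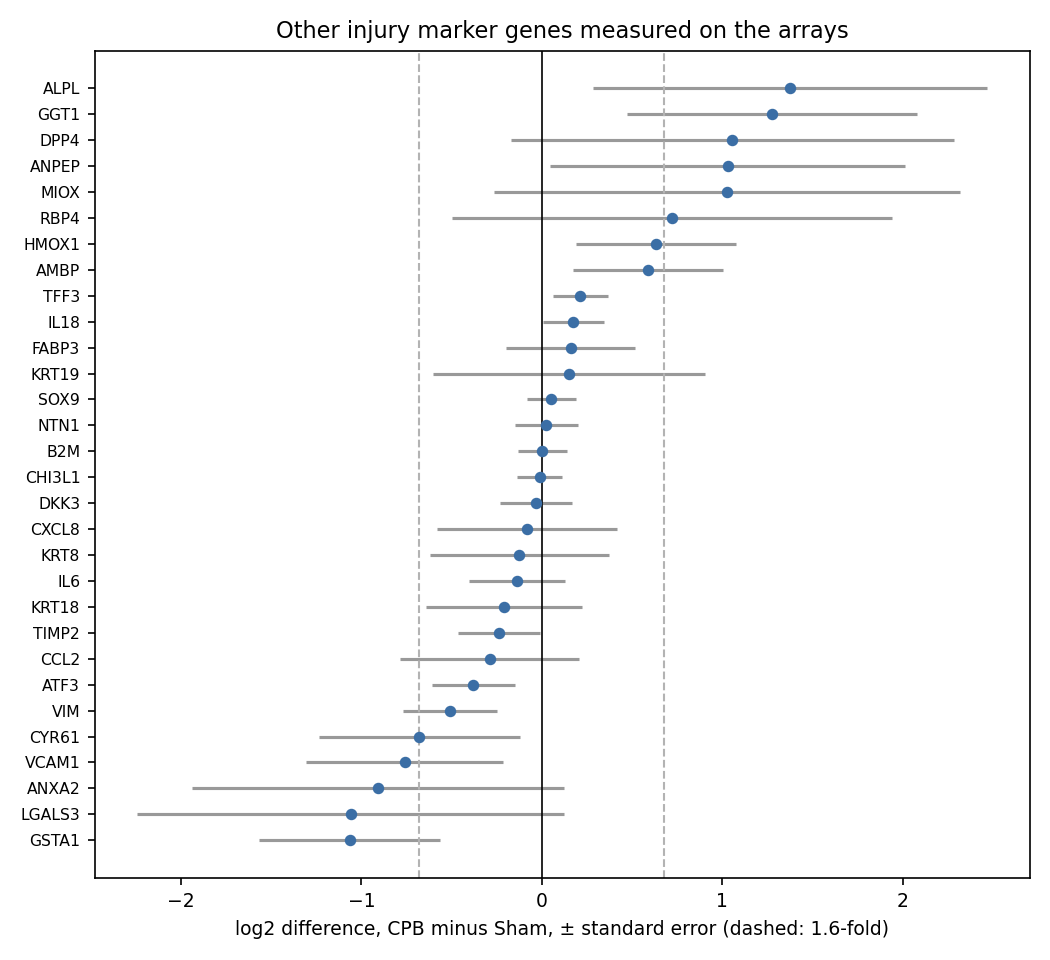
Log2 difference, CPB minus Sham, with its standard error for the 30 measured genes of the injury marker list, 1 probe set per gene, ordered by size. Dashed lines mark 1.6-fold. None met the study's threshold, beside 0.304% of all probe sets, and the differences lie on both sides of 0 in equal number, from -1.06 (GSTA1) to 1.38 (ALPL).

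The genes whose profile over the 6 arrays lay nearest to those of the 3 most variable members were found by the root mean square difference of centred log2 values among 5021 named genes of at least median brightness. For EGF, the nearest were BAMBI, AGTR1, PANK1 and LYPLAL1, at 0.21, 0.28, 0.29 and 0.32 log2 units. BAMBI, a pseudoreceptor of the TGF-beta family, read 332, 565 and 215 in Sham and 557, 159 and 482 in CPB, with the same low animals as EGF, Sham 3 and CPB 2. That probe set differed by 0.029 (SE 0.58) and a second BAMBI probe set by 0.39 (SE 0.30). For CLU the nearest were CCNG2, RPL22L1, F2R and C7H14orf119, at 0.24 to 0.28 log2 units. CCNG2, cyclin G2, read 585, 634 and 646 in Sham and 514, 515 and 362 in CPB, without overlap, as held for 5.27% of all probe sets. For SPP1 they were AFF1, STC1, LAMP2 and MMP2, at 0.20 to 0.23 log2 units, and STC1, the hormone stanniocalcin-1, read 102, 134 and 90.1 in Sham and 204, 103 and 65.1 in CPB, again highest in CPB 1 and lowest in CPB 3. All of these genes were picked for their likeness to a member. The shared low or high animals, and the separation of the groups in CCNG2, therefore follow from the choice and are no separate result. These likenesses describe 6 arrays, and they were not tested.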

How the data were processed

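The members and the gene lists were chosen with earlier results of these data known. Renal medulla RNA of 6 pigs was hybridised to the Affymetrix GeneChip Porcine Genome Array, and the authors ran RMA in ArrayStar on the scans, which corrects background, normalises by quantiles and summarises probes by median polish. RMA is named in the submitters' processing notes too. The deposited values are intensity on the linear scale, judged so from their size and range, for 24123 probe sets, and log2 was taken here. Raw array files were not used here, so signal over background is unknown, and the number of arrays limits the precision. No genome build is named, so no positions are given. Of the probe sets tested 10069 carry 1 symbol in the array annotation, 198 several and 13732 none, and genes were named from those with 1.

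The 124 control probe sets were left out. CPB and Sham were compared using lmFit and eBayes of limma 3.58.1 (R 4.3.3). Group was the sole term, and p-values were adjusted by Benjamini-Hochberg across 23999 probe sets. Calls at the study's threshold (an unadjusted p below 0.05 with 1.6-fold or more) came from that fit. Lists used 1 probe set per gene, the brightest. Named genes were all member probe sets, fixed partners of each member, up to 3 genes per list by smallest p, IL18, and those nearest in profile. Other genes of the lists that the text names (further integrins, cathepsins, ligands and injury or segment markers) were chosen with their values in view. The code was tested on simulated data. The alternatives were the methods' t-test, other limma settings, normalizations and filters, a replicate block, arrays left out and a proximal tubule covariate.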

Additional observations from a re-analysis of the deposited data

How the results depend on the processing

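Of the 7 member probe sets 1 met the study's threshold under 8 of 19 alternatives, which include a minimum of 1.5-fold and of 2-fold, and 0 met it under the other 11. The count was 0 with the methods' t-test on log2 or linear values (30 and 26 of all probe sets, against 73 in the limma fit made here). It was also 0 with array weights (2116), with the replicate block (76), with both replicate 2 arrays left out (3070, with 719 past an adjusted p of 0.05) and at a minimum of 2-fold (21). It ranged from 0 to 1 when 1 array was left out, while all probe sets ranged from 52 to 701 (701 without Sham 2, 693 without CPB 2). The proximal tubule covariate gave 1 and 110. Array weights put 6.16 on CPB 1 and 0.34 to 1.27 on the other arrays, in a weight fit that stopped before it converged. Under the replicate block CLU differed by -0.71 with an unadjusted p of 0.0559 in limma. The labels do not say that the numbers pair the animals. The deviations of same-numbered arrays from their group means correlated at -0.39, -0.68 and -0.016, and those of differently numbered arrays at -0.71 to 0.70. With a range that wide, these correlations cannot show whether same-numbered animals shared any handling. Under the 17 alternatives that refit the data, 0 members passed an adjusted p of 0.05.

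EGF turned to -0.016 with the t-test on linear values, -0.034 after a second quantile normalization and -0.24 with the covariate. CST3 turned to -0.00014 and -0.048 on the brightest and the dimmest probe set with array weights and to -0.018 and -0.0063 with both replicate 2 arrays left out. With the covariate FABP1 turned to -0.074, LRP2 to -0.59, VLDLR to 0.072 and HNF4A to -0.27. EGFR turned to -0.076 with array weights and -0.42 with both replicate 2 arrays left out. With 1 array left out the ranges were -0.24 to 0.40 for SPP1, -0.016 to 0.14 and -0.0091 to 0.16 for those CST3 probe sets, -0.10 to 0.31 for FABP1 and -0.48 to 0.48 for EGF. They were -0.49 to 1.83 for LRP2, -0.18 to 0.21 for VLDLR, -0.18 to 1.71 for HNF4A, -0.28 to 0.35 for EGFR and -0.055 to 0.10 for HBEGF. The causes were not tested. FABP1 has no value with dim probe sets left out, since it is one of them. With 3 animals per group, the intervals of SPP1 and EGF do not separate a difference of 1.6-fold from none.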

Other observations

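Leukocyte genes that bear on LCN2, whose protein neutrophil granules also hold, could be read, while LCN2 has no probe set with 1 symbol. Of 10 measured neutrophil markers 8 had higher and 2 lower means in CPB, and 1 met the study's threshold, beside 0.304% of all probe sets (0.217% as lower). It was FCGR3A, an Fc receptor, with intensities of 640, 291 and 700 in Sham and 275, 251 and 274 in CPB, a log2 difference of -0.93 (SE 0.34). Its groups did not overlap, as held with CPB below for 1.89% of all probe sets. A second FCGR3A probe set differed by -0.14 (SE 0.13), and the study had listed the first on these arrays under the name FCGR3B. ITGAM, an integrin chain of myeloid cells, was dim, brighter than 19.7% of all probe sets. It read 23.5, 29.4 and 25.5 in Sham and 33.0, 31.6 and 31.6 in CPB, without overlap, as held with CPB above for 3.38% of all probe sets. Its log2 difference of 0.30 (SE 0.12) fell short of the threshold, and its second probe set differed by -0.011 (SE 0.13). S100A8 and S100A9, cytosolic proteins of neutrophils, and the granule genes LTF and ELANE were dim, with means of 18.4, 19.9, 30.1 and 51.7 in Sham and 21.2, 21.8, 31.3 and 51.9 in CPB, and differed by 0.20, 0.15, 0.072 and 0.0087. PGLYRP1, MMP9, S100A12 and BPI, the other members measured, differed by 0.11, 0.10, 0.080 and -0.085. The list had a median of 0.092, beside 0.027 over all probe sets.

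The endothelial list, with 15 genes measured, had 7 higher and 8 lower means and a median of -0.068. It had 1 called, beside the same 0.304% of all probe sets, PECAM1, an adhesion molecule of vessel lining that the study had also listed, with a log2 difference of -0.75 (SE 0.29) and overlapping groups. Its second probe set differed by -0.74 (SE 0.21). ERG, CLDN5, TEK and CDH5, further endothelial genes, differed by -0.90, -0.75, -0.68 and -0.65 and were not called. They all come from the lower side of the list, and the 7 higher genes went the other way, by up to 0.23. ERG read 233, 146 and 202 in Sham and 58.6, 250 and 70.9 in CPB, so that CPB 2 was the highest animal. AQP1, a water channel of descending vessels that tubule segments also hold, differed by 0.029 (SE 0.18). The collecting duct and distal tubule list, with 8 measured, had 4 higher and 4 lower means and 0 called, among them HSD11B2, the enzyme that protects the mineralocorticoid receptor, at -0.22 (SE 0.39). S100A8, S100A9, LTF, ELANE, PGLYRP1, MMP9, S100A12, BPI, CLDN5, TEK, CDH5, AQP1 and HSD11B2 were picked with their values in view, outside the rule for named genes.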
